A study of Mus musculus with 4 samples.

Results

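Collecting duct and urothelium genes are a set of 9 genes, Calb1, Aqp2, Aqp3, Upk1b, Upk3a, Elf3, Elf5, Lcn2 and Tfcp2l1, whose products mark the epithelium that drains the kidney. They were followed in sorted cells of the mouse embryonic kidney. Every probe that the array files name for these genes was taken, which gave 9 probes of 8 genes. Tfcp2l1 stands in the files under its older symbol Tcfcp2l1, and its 2 probes were found through their accession, so that 11 probes of 9 genes are described, of 39429 non-control probes on the array. All 11 passed the filter on dim probes, which kept 30012 probes.

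Kidneys of stage E15.5 that carried the Six2GFP reporter, from hybrid 129 and C57BL/6 mice, were dissected, and their cells were sorted by green fluorescence. The tested cells were Six2GFP-positive, described as nephron progenitors, and they were set against the Six2GFP-negative cells of such kidneys, with 2 arrays per population. Six2 is the gene of the cap mesenchyme that the reporter is named for, and what drives the fluorescent protein is not described further in the labels. Both populations carry the same reporter and the same strain background, and their RNA was labelled with Cy3 and hybridised to one-colour Agilent arrays. Tamoxifen is named in each sample's description but in no protocol, and the labelled cell type is nephron progenitor for both populations. The Six2GFP-negative cells are all cells without the reporter's light, so they are a mixture of epithelium, stroma, vessels and blood. Nothing states that the 2 arrays of a population came from separate animals or litters, so p-values measure the spread between these samples, which may be technical.

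The ureteric bud is an epithelial tube that branches into the kidney mesenchyme under signals from the cap, and its branches become the collecting ducts. Its lower part, the ureter, and the renal pelvis are lined by urothelium. In the mature duct, principal cells take up water and sodium and intercalated cells move acid and base, while urothelial cells cover their surface with uroplakin plaques. Nephron progenitors are a separate lineage of the mesenchyme and surround the bud's tips.

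The arrays read each gene with probes of 60 bases. The 2 probe sequences shown here belong to Aqp2 and Upk3a, the genes that stand for the water-transporting duct and for the urothelial surface. Each covers a stretch of the mm9 genome longer than itself, 977 bases for Aqp2 and 902 bases for Upk3a, so both probes cross at least 1 exon junction.
Aqp2 probe, chr15:99412578-99413554, plus strand: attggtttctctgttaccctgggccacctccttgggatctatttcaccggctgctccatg
Upk3a probe, chr15:84851819-84852720, plus strand: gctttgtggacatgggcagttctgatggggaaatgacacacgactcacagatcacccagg
The promoters of 7 of the 9 genes are in the RefSeq table used (GRCm38), 8 promoters in all. The 250 bases before the start of 4 of them are shown, as examples with at least 1 motif match. The promoter of Upk3a also holds a match and is not shown. All 9 genes are lower in Six2GFP-positive cells, so their direction does not set these 4 apart. Capitals mark matches, on either strand, of the 3 short motifs named after the sequences.
Aqp2 promoter, chr15:99578806-99579055, plus strand: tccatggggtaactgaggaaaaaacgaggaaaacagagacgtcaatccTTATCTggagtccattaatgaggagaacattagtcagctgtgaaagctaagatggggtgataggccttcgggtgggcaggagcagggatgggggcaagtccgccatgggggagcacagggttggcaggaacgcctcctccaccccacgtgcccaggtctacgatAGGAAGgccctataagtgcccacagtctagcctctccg
Aqp3 promoter, chr4:41098184-41098433, minus strand: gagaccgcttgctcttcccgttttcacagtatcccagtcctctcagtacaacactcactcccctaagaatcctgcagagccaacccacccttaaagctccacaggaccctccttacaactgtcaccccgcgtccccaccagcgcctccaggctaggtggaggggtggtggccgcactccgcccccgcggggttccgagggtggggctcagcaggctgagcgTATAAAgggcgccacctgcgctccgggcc
Tfcp2l1 promoter, chr1:118627695-118627944, plus strand: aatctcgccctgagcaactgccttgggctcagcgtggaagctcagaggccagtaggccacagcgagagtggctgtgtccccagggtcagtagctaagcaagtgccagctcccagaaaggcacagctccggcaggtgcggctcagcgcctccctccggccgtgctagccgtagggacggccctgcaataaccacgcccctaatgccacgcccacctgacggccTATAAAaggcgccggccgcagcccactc
Lcn2 promoter, chr2:32387740-32387989, minus strand: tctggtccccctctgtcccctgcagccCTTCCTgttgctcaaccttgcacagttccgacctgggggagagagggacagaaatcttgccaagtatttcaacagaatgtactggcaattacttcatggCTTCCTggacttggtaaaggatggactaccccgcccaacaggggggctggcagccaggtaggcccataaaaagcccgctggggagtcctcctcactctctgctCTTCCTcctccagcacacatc
A first motif, the core promoter box TATAAA, lies at -28 to -23 from the start of Tfcp2l1 and at -29 to -24 from that of Aqp3. It is in 2 of the 8 promoters of the set, against 12.4% of 32851 promoters in the table. The core bound by ETS factors, AGGAAG, is in 2 of the 8, with 3 matches in Lcn2 on the opposite strand and 1 in Aqp2 at -38 to -33, against 29.5% of all promoters. AGATAA, bound by factors such as Gata3, is in 2 of the 8, in Aqp2 at -202 to -197 and in Upk3a at -188 to -183, both on the opposite strand, against 9.99% of all. A pair of CCAG with 6 bases of any kind between, bound by CP2 factors such as Tfcp2l1, was in 0 of the 8 and in 2.78% of all promoters. The letters of the motifs do not overlap in these windows, and a match is a description of the letters only.

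Six2 itself separated the arrays as labelled, with log2 levels of 5.50 and 5.66 on the Six2GFP-positive arrays and -0.26 and -0.24 on the Six2GFP-negative arrays. Levels here are log2 of the processed signal minus the array's 75th percentile, so 0 is that percentile, and differences are Six2GFP-positive minus Six2GFP-negative. The difference for Six2 was 5.84 ± 0.10 (limma adjusted p = 4.79e-04, with the standard error after the ± and 2 arrays in each group, here and for all differences). Between 72.5% and 79.1% of an array's spots were well above background, the scanner software's own test of a spot against its surroundings, and no spot was saturated. Log2 signals correlated at 0.995 within each population and at 0.945 to 0.95 between them, across probes, which are not independent replicates. All 4 arrays lay on 1 slide and were scanned at 1 recorded time. The number of arrays limits the precision.

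All 9 genes were lower in Six2GFP-positive cells. By limma with Benjamini-Hochberg adjustment over all 30012 probes, 11 of 11 probes were lower and 0 were higher, at an adjusted p under 0.05. Of all probes tested, 18.0% were lower and 22.7% were higher. The members were chosen with earlier results of these data known, so their counts are a description and not a test. The direction did not depend on the scaling, while the split of all calls did: 6810 were higher and 5400 lower with the 75th percentile, against 14693 higher and 4560 lower with each array's median. The median difference was -3.65 on the log2 scale over the 11 probes and 0.17 over all probes. Both Six2GFP-positive arrays lay below both Six2GFP-negative arrays for 11 of 11 probes, against 26.8% of all probes. By the fitted values, a fold of at least 4 with a call was reached by 10 of the 11 and by 7.17% of all, and Aqp2 was just short of it at 3.99-fold. Upk1b is among the 10, although its bound is only 2.38-fold. Well above background on both Six2GFP-negative arrays and on neither Six2GFP-positive array were 2 of the 11, Upk1b and a Calb1 probe, and 3.88% of all. These 2 passed the filter only through the Six2GFP-negative arrays. A lower value was thus favoured in advance for them, and they add no weight to the counts. The 9 other probes were well above background on all 4 arrays. In sorted bulk samples, fewer cells of a type and less RNA per cell cannot be told apart.

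**Figure D1:**
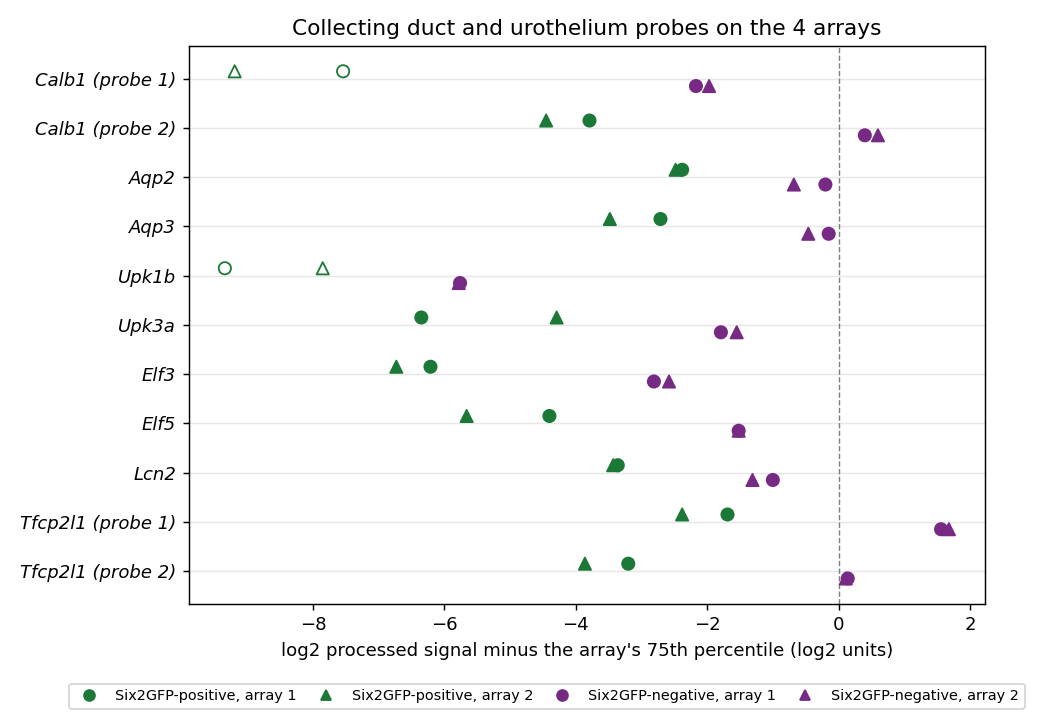
Log2 processed signal minus the array's 75th percentile (x axis, log2 units) for the 11 probes of the 9 genes (rows), with circles for array 1 and triangles for array 2 of each population. Open symbols mark probes not well above background, which are both Six2GFP-positive arrays of Upk1b and of Calb1 probe 1. In every row the green Six2GFP-positive symbols lie left of the purple Six2GFP-negative symbols.

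Aqp2 encodes the vasopressin-regulated water channel of the principal cell. It had levels of -2.38 and -2.48 on the Six2GFP-positive arrays and of -0.20 and -0.68 on the Six2GFP-negative arrays. The groups did not overlap, and its signal remained well above background on all 4 arrays. Aqp2 was 3.99-fold lower in Six2GFP-positive cells (difference -2.0 ± 0.19, limma adjusted p = 0.00434). Aqp3 encodes the channel for water and glycerol in the basolateral membrane of the same cells, and its probe lies at mm9 chr4:41039962-41040021 on the minus strand. Its levels were -2.71 and -3.48 in Six2GFP-positive cells and -0.15 and -0.46 in Six2GFP-negative cells, again without overlap. The fold was 6.92 (difference -2.79 ± 0.30, adjusted p = 0.00607).

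Among the other aquaporins, 7 of 10 had a probe above the filter, of which 4 were lower and 0 higher in Six2GFP-positive cells, against 18.2% lower and 22.4% higher of 24150 genes, each read by its brightest probe. Aqp1, the channel of the proximal tubule and of red cells, differed by -3.39 ± 0.25 (limma adjusted p = 0.00226). Aqp11, an intracellular channel, differed by -2.07 ± 0.14 (adjusted p = 0.00197). Aqp4, basolateral in principal cells, differed by -0.93 ± 0.19 (adjusted p = 0.0259). Aqp5 differed by -1.70 ± 0.34 (adjusted p = 0.0251) on its brighter probe, while a second probe gave -0.20. Aqp6, Aqp7 and Aqp8 did not pass, with differences of -0.05, 0.19 and 0.18. With the array median Aqp7 and Aqp8 were higher, each by 0.45 (adjusted p = 0.0471 and 0.0286), Aqp8 was higher by 0.49 with quantile normalization, and Aqp6 changed sign under both scalings. Without Six2GFP-positive array 2, or with no filter on dim probes, 2 of the 7 were called lower, Aqp1 and Aqp11. Aqp4 also missed the threshold without Six2GFP-negative array 1 (adjusted p = 0.0829) or array 2 (0.0541), and Aqp5 without Six2GFP-positive array 1 (0.0917). With normexp Aqp4 differed by -0.55 and Aqp5 by -0.66. No probe of Mip, Aqp9 or Aqp12 passed the filter.

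Calb1 encodes calbindin-D28k, a cytoplasmic calcium buffer of the ureteric epithelium and distal tubule, and it showed the largest difference of the set. Its brighter probe, at mm9 chr4:15835078-15835137 on the plus strand, had levels of -3.79 and -4.45 in Six2GFP-positive cells and of 0.40 and 0.60 in Six2GFP-negative cells. The difference was -4.61 ± 0.26 (limma adjusted p = 0.00119), or 24.5-fold. The other Calb1 probe, at chr4:15833582-15833641, read -7.54 and -9.19 on the Six2GFP-positive arrays and -2.17 and -1.97 on the Six2GFP-negative arrays. It was not well above background on either Six2GFP-positive array, so its fold is a bound. Set against the lowest signal still well above background, it was 31.0-fold lower, a bound of -4.95 in log2. Its fitted difference was -6.29 (adjusted p = 0.00415), and -2.63 with normexp background correction, which falls short of that bound. The size of this difference thus depends on how background is removed.

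Of 8 calcium-handling partners, 6 passed the filter, 3 were lower and 0 higher, against 18.2% and 22.4% of all genes. S100g, calbindin-D9k, differed by -3.61 ± 0.32 (limma adjusted p = 0.00347). Trpv6, an apical calcium channel, differed by -1.56 ± 0.09 (adjusted p = 0.00138), or -0.94 with normexp. Atp2b1, a calcium pump of the plasma membrane, differed by -1.01 ± 0.09 (adjusted p = 0.00321). The array median called 2 of the 6 higher, quantile normalization called 2, normexp called 1, and the fit without Six2GFP-positive array 2 called 1.

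Calb1 is also made in the distal tubule. Of 10 distal tubule genes tested, 4 were lower and 3 higher, with a median of -0.60, against 18.2% and 22.4% of all genes. The lower count was 3 with the array median, quantile normalization or normexp, and 4 with the deposited value table. Summed over the list in multiples of an array's 75th percentile, their signal came to 2.24 and 1.85 on the Six2GFP-positive arrays and to 5.67 and 5.80 on the Six2GFP-negative arrays. Pou3f3, a transcription factor of the loop and distal tubule, differed by -4.98 ± 0.22 (limma adjusted p = 7.44e-04), or -2.63 with normexp, with 1 of the 2 Six2GFP-positive arrays well above background. Tfap2b, a factor of the distal tubule, differed by -4.20 ± 0.30 (adjusted p = 0.00207), and Mal, a membrane protein of apical sorting, by -3.51 ± 0.37 (adjusted p = 0.00558). Klk1, the remaining lower gene, differed by -0.77 ± 0.20 (adjusted p = 0.0486). The 3 higher genes were Ppp1r1a (2.54), Wnk4 (2.23) and Trpm6 (1.58). Klk1 and these 3 were named after their values were seen. All 10 were well above background on Six2GFP-positive array 1 and 7 on array 2, and on both Six2GFP-negative arrays all 10 were. The part of distal tubule cells in the Calb1 difference was not tested.

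Tfcp2l1 encodes a CP2-family transcription factor that directs collecting duct cells toward their principal and intercalated forms. Its first probe, at mm9 chr1:120581646-120581705, had levels of -1.69 and -2.38 in Six2GFP-positive cells and of 1.56 and 1.68 in Six2GFP-negative cells. Its second probe, at chr1:120577637-120577696, had levels of -3.20 and -3.86 in Six2GFP-positive cells and of 0.14 and 0.11 in Six2GFP-negative cells. The populations were well apart on both probes. The differences were -3.65 ± 0.26 (limma adjusted p = 0.00208) and -3.66 ± 0.25 (adjusted p = 0.00187), and both probes gave a 12.6-fold lower signal. The 2 probes share the gene and the RNA samples, so their likeness is no replication.

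Of 5 relatives in the CP2 and grainyhead family, 3 were lower and 1 was higher, against 18.2% and 22.4% of all genes. Grhl2, a factor that maintains epithelial junctions, differed by -4.74 ± 0.14 (limma adjusted p = 4.83e-04) on its brighter probe. Its other probe was well above background on neither Six2GFP-positive array, with a fitted difference of -3.63 and a bound of only 2.55-fold. Grhl1 differed by -1.26 ± 0.16 (adjusted p = 0.00941). Grhl3, a factor of surface and urothelial differentiation, read -6.12 and -4.27 on the Six2GFP-positive arrays and -2.75 and -2.67 on the Six2GFP-negative arrays, a difference of -2.48 ± 0.66 (adjusted p = 0.0489). Grhl3 passed the threshold narrowly: its adjusted p was 0.148 without Six2GFP-negative array 1, 0.16 without Six2GFP-negative array 2, and 0.0692 with quantile normalization. Without Six2GFP-positive array 1 the difference for Grhl3 was -1.56. The ubiquitous Tfcp2 was higher by 0.53 ± 0.10 (adjusted p = 0.0236), a call lost when any single array was left out, while Ubp1 differed by 0.04. Grhl1 lost its call without Six2GFP-negative array 2 (adjusted p = 0.0553), which left 1 of the 5 lower.

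Elf3 and Elf5 are epithelium-specific ETS transcription factors, both active in differentiating epithelia. The Elf3 probe, at mm9 chr1:137150328-137150387 on the minus strand, read -6.21 and -6.73 on the Six2GFP-positive arrays and -2.81 and -2.58 on the Six2GFP-negative arrays. The groups did not overlap, and the difference was -3.78 ± 0.22 (limma adjusted p = 0.00125), or 13.7-fold. With normexp background correction the Elf3 difference was -1.88. The Elf5 probe, at mm9 chr2:103290958-103291017, read -4.40 and -5.66 on the Six2GFP-positive arrays and -1.52 on each Six2GFP-negative array. Its Six2GFP-positive arrays lay further apart than the Six2GFP-negative ones, with a difference between populations of -3.51 ± 0.45 (adjusted p = 0.00938), or 11.4-fold, and of -2.34 with normexp. Without Six2GFP-negative array 1 the adjusted p for Elf5 was 0.0566, and without Six2GFP-negative array 2 it was 0.0605.

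Of the 5 other members of that family, 2 were lower and 1 was higher, against 18.2% and 22.4% of all genes. Ehf, another epithelium-specific factor, differed by -5.36 ± 0.43 (limma adjusted p = 0.00275) on its brighter probe and by -3.48 on its other probe. Elf1, a broadly expressed member, differed by -0.75 ± 0.09 (adjusted p = 0.00662) on its brighter probe, or -0.49 with the array median. The other Elf1 probe gave -0.35. Elf2, also broadly expressed, was higher by 0.36 ± 0.09 (adjusted p = 0.0461), a call lost with quantile normalization (0.23, adjusted p = 0.107), in the deposited value table (0.35, adjusted p = 0.0534), with no filter on dim probes (adjusted p = 0.0903) and when any single array was left out. Elf4 and Spdef did not pass, at 0.07 and -0.40.

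Upk3a and Upk1b encode uroplakins, membrane proteins of the plaques on the urothelial surface. The Upk3a probe read -6.35 and -4.29 on the Six2GFP-positive arrays and -1.79 and -1.55 on the Six2GFP-negative arrays. The groups did not overlap, although the 2 Six2GFP-positive arrays were 2.06 apart. Upk3a was 12.5-fold lower (difference -3.65 ± 0.74, limma adjusted p = 0.0267), or -2.24 with normexp. The difference was -2.62 without Six2GFP-positive array 1 and -4.68 without array 2. Without Six2GFP-negative array 1 its adjusted p was 0.0969 and without Six2GFP-negative array 2 it was 0.11.

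Upk1b, read by 10 spots per array at mm9 chr16:38773859-38773918 on the minus strand, lay close to background even in Six2GFP-negative cells. Its averaged levels were -9.34 and -7.85 on the Six2GFP-positive arrays and -5.76 and -5.78 on the Six2GFP-negative arrays. No spot was well above background on the Six2GFP-positive arrays, 0 of 8 used on array 1 and 0 of 10 on array 2, whereas 10 of 10 were on each Six2GFP-negative array. Spots ranged from -9.46 to -9.13 on Six2GFP-positive array 1 and from -8.58 to -7.38 on array 2. On the Six2GFP-negative arrays they ranged from -5.94 to -5.55 and from -6.00 to -5.62. Spots on 1 array are not replicates of a population. The raw spot signal had a median of 41.9 and 50.4 on the Six2GFP-positive arrays, beside local backgrounds of 37.5 and 40.0, and of 74.0 and 73.5 on the Six2GFP-negative arrays, beside 40.0 and 34.5. Set against each array's lowest signal still well above background, Upk1b was 2.38-fold lower in Six2GFP-positive cells, a bound of -1.25 in log2. Its fitted difference was -2.82 ± 0.53 (limma adjusted p = 0.0228). The fitted difference was -0.32 with normexp, which falls short of that bound, and -1.63 in the deposited value table. Without Six2GFP-negative array 1 its adjusted p was 0.0929, and without Six2GFP-negative array 2 it was 0.0959.

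Of 20 further urothelial genes, 19 passed the filter, 14 were lower and 3 higher, against 18.2% and 22.4% of all genes. The median difference was -1.42, or -1.10 with genes at their bound where a population was not well above background. Foxa1, a pioneer factor of ureteric and urothelial epithelium, differed by -3.66 ± 0.38 (limma adjusted p = 0.00557), or -1.80 with normexp. Krt7, a keratin of simple and urothelial epithelium, differed by -3.35 ± 0.14 (adjusted p = 7.28e-04). Krt20, a keratin of umbrella cells, read -7.31 and -6.39 in Six2GFP-positive cells and -3.89 and -4.19 in Six2GFP-negative cells, a difference of -2.81 ± 0.35 (adjusted p = 0.00854) or -0.94 with normexp, with 1 of the 2 Six2GFP-positive arrays well above background. Without Six2GFP-negative array 1 the list had 8 genes lower and without Six2GFP-negative array 2 it had 9, with Krt20 at adjusted p = 0.0546 and 0.0505. Krt14, Krt15 and Psca were the 3 higher genes, singled out after their values were seen, at 0.95, 2.50 and 0.61. Without Six2GFP-positive array 1 or Six2GFP-negative array 2 only Krt15 of these was called. Krt14 and Krt15 are keratins of basal epithelial cells. On the same list Krt5 and Trp63 were not called, at 0.38 and -0.14, and another Trp63 probe gave -2.35.

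Uroplakins and keratins are also made by mesothelium, the outer lining of the kidney's capsule. Of 8 mesothelial genes, 6 were lower and 2 higher, against 18.2% and 22.4% of all genes. The list shares Krt7 and Upk3b with the urothelial list and Krt19 with the ureteric list. The summed signal of the 8 genes was 39.7 and 39.5 in Six2GFP-positive cells and 18.6 and 18.7 in Six2GFP-negative cells. It was led by Wt1, which nephron progenitors express as well. Msln, mesothelin, read -8.35 and -6.73 on the Six2GFP-positive arrays and -3.75 and -3.79 on the Six2GFP-negative arrays, a difference of -3.77 ± 0.58 (limma adjusted p = 0.0143) or -1.26 with normexp, with 1 of the 2 Six2GFP-positive arrays well above background. Its adjusted p was 0.0709 without Six2GFP-negative array 1 and 0.0742 without array 2. Bnc1, basonuclin, was 8.24-fold higher by its bound (adjusted p = 0.00112 for the fitted difference). The part of mesothelial cells in the uroplakin differences was not tested.

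Lcn2 encodes lipocalin 2, an iron-siderophore carrier made by collecting duct epithelium and by neutrophils. Its probe, at mm9 chr2:32240199-32240258 on the minus strand, read -3.36 and -3.43 on the Six2GFP-positive arrays and -1.0 and -1.31 on the Six2GFP-negative arrays. The arrays of each population lay close together, and Lcn2 had the smallest standard error of the set (difference -2.24 ± 0.14, limma adjusted p = 0.00152), a 4.71-fold lower signal. Of 13 other lipocalins and LCN2 receptors, 7 passed the filter, 3 were lower and 1 was higher, against 18.2% and 22.4% of all genes. The higher gene was Slc22a17, a receptor for LCN2, at 0.91 ± 0.11 (adjusted p = 0.00744), named after its value was seen. Lrp2, megalin, an endocytic receptor of the proximal tubule, differed by -1.65 ± 0.13 (adjusted p = 0.00243). Ptgds, a lipocalin-type prostaglandin synthase, differed by -1.46 ± 0.13 (adjusted p = 0.00358), or -0.72 with normexp, and Rbp4, the retinol carrier, by -0.96 ± 0.09 (adjusted p = 0.00363).

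Genes of neutrophils, which also make Lcn2, were measured in a list of 12 granulocyte and macrophage genes. Of these, 9 were lower and 0 higher, against 18.2% and 22.4% of all genes, with a median of -2.74, or -1.77 at the bounds. Their summed signal was 7.50 and 5.57 in Six2GFP-positive cells and 12.7 and 9.60 in Six2GFP-negative cells. S100a8, a neutrophil calcium-binding protein, read -4.47 and -5.53 in Six2GFP-positive cells and 0.03 and -1.02 in Six2GFP-negative cells (difference -4.50 ± 0.53, limma adjusted p = 0.00761). S100a9, its partner, differed by -3.79 ± 0.53 (adjusted p = 0.0113, and 0.0527 without Six2GFP-negative array 2), and Mpo, myeloperoxidase, by -3.19 ± 0.20 (adjusted p = 0.00157), or -1.20 with normexp. For Mpo 1 of the 2 Six2GFP-positive arrays was well above background. Of the 12, 9 and 8 were well above background on Six2GFP-positive arrays 1 and 2, and all 12 on the Six2GFP-negative arrays. Elane, a neutrophil protease, and the macrophage genes Csf1r and C1qa did not pass, at 0.18, -0.51 and -0.08. Ngp, Ltf and Mmp8, neutrophil granule genes, were not well above background on either Six2GFP-positive array. The part of these cells in the Lcn2 difference was not tested.

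**Figure D2:**
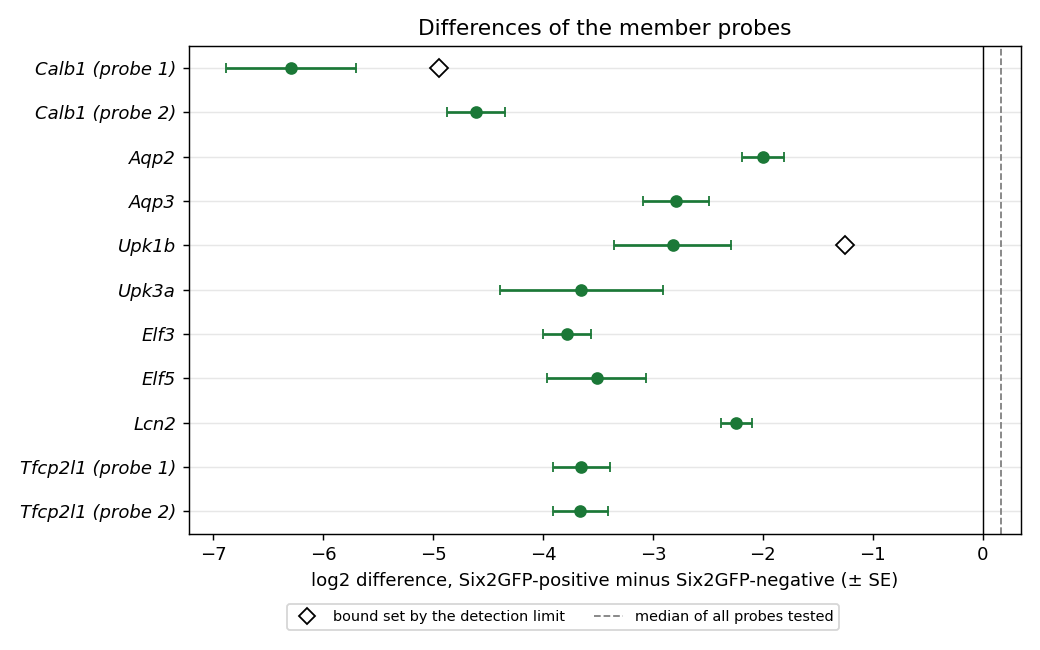
Log2 difference, Six2GFP-positive minus Six2GFP-negative (x axis), for the 11 probes (rows), with bars of ± 1 standard error from limma. Diamonds give the bound for Calb1 probe 1 and Upk1b, and all 11 points lie left of 0 and of the dashed line at the median of all probes, 0.17.

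The ureteric bud, from which the ducts arise, was lower in most of its marker genes. Of 24 tip and trunk genes, all tested, 19 were lower and 4 higher in Six2GFP-positive cells, against 18.2% and 22.4% of all genes. Their median was -3.24, beside 0.17 over all genes. Ret, the tip receptor for GDNF, read -5.87 and -6.16 on the Six2GFP-positive arrays and 0.55 and 0.74 on the Six2GFP-negative arrays, a 101-fold difference (-6.66 ± 0.15, limma adjusted p = 4.79e-04). Emx2, a homeobox factor of the bud, differed by -5.45 ± 0.23 (adjusted p = 7.31e-04). Gfra1, Etv4, Etv5 and Pax2, which cap mesenchyme expresses as well, were the 4 higher genes, named after their values were seen, at 0.55, 1.27, 0.51 and 1.31. Without Six2GFP-positive array 1, Six2GFP-positive array 2 or Six2GFP-negative array 1, 2 of the list were called higher, without Gfra1 and Etv5, and Etv5 also missed the threshold with quantile normalization (0.30, adjusted p = 0.113).

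Genes of the mature duct's cells were tested as well. Of 14 principal cell genes, 13 passed the filter, 9 were lower and 1 was higher, against 18.2% and 22.4% of all genes. Their median was -2.66. Tspan8, a tetraspanin, differed by -4.27 ± 0.13 (limma adjusted p = 4.99e-04). Scnn1g, a subunit of the sodium channel ENaC, read -6.66 and -8.11 on the Six2GFP-positive arrays and -3.40 and -3.50 on the Six2GFP-negative arrays (-3.93 ± 0.52, adjusted p = 0.0102). Avpr2, the vasopressin receptor that controls Aqp2, read -6.30 and -8.21 on the Six2GFP-positive arrays and -3.60 and -3.39 on the Six2GFP-negative arrays (-3.77 ± 0.68, adjusted p = 0.021). Both genes were well above background on Six2GFP-positive array 1 and not on array 2, so the size of their differences rests in part on a value at background. With normexp Scnn1g differed by -1.43 and Avpr2 by -1.25. Without Six2GFP-negative array 1 or array 2, 4 of the 13 were called lower, and Scnn1g (adjusted p = 0.0597 and 0.0617) and Avpr2 (0.0843 and 0.0948) were not among them. The higher gene, named after its value was seen, was Hsd11b2, the enzyme that inactivates glucocorticoid in principal cells, at 1.27 ± 0.09 (adjusted p = 0.00191).

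Of 17 intercalated cell genes, 16 passed the filter, 10 were lower and 0 higher, against 18.2% and 22.4% of all genes. Their median was -1.39, or -1.08 at the bounds. The lower count was 7 with normexp or with no filter on dim probes, and 11 with the replicate block. With the filter on all 4 arrays, 6 of 11 were lower. Oxgr1, among the 10 and named after its value was seen, was well above background on neither Six2GFP-positive array, with a bound of 1.48-fold. Car2, a cytosolic carbonic anhydrase, differed by -4.57 ± 0.18 (limma adjusted p = 6.15e-04). Slc4a1, the anion exchanger that red cells share, is counted in the erythroid list as well and differed by -4.32 ± 0.16 (adjusted p = 5.89e-04). Rhbg, an ammonium transporter, differed by -2.63 ± 0.19 (adjusted p = 0.00226), or -1.35 with normexp. Without Six2GFP-negative array 1, 6 of the 16 were called lower, and without Six2GFP-negative array 2, 3 were.

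Most marker genes of other cell types of the negative fraction were lower as well, where 18.2% of all genes were lower and 22.4% higher. All 10 endothelial genes were lower, with a median of -5.20, led by Robo4 (-5.59), Cdh5 (-5.46) and Esam (-5.34). Of 10 stromal genes 9 were lower, with a median of -4.18, among them Pdgfra (-5.39), Col3a1 (-5.18) and Lum (-5.15). Of 9 erythroid genes 6 were lower, with a median of -4.54, or -3.17 at the bounds, led by Alas2 (-6.34), Ahsp (-6.06) and Hba-a1 (-4.54). Of 12 nephron progenitor genes 11 were higher and 0 lower, with a median of 4.25, led by Fgf20 (7.05, or 4.31 with normexp, and well above background on 1 Six2GFP-negative array), Six2 and Osr1 (5.13). Summed signals were 9.73 and 7.83 in Six2GFP-positive cells and 95.9 and 87.4 in Six2GFP-negative cells for the stroma. For the 9 duct and urothelium genes, by their brightest probes, they were 0.898 and 0.685 in Six2GFP-positive cells and 7.33 and 7.34 in Six2GFP-negative cells. How far each of these cell types sets the level of the 9 genes was not tested.

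**Figure D3:**
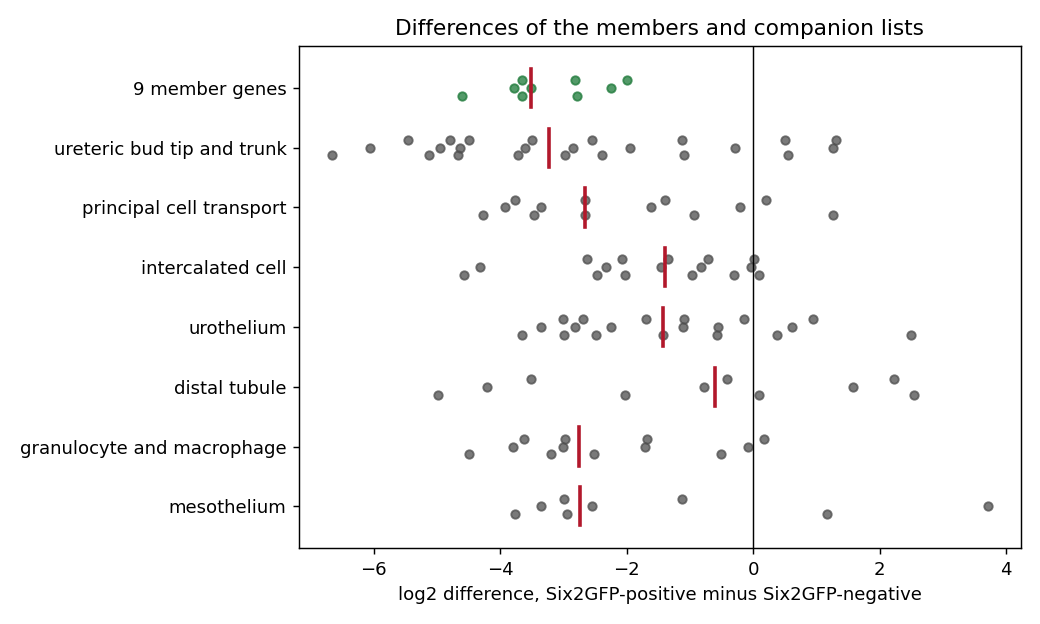
Log2 difference, Six2GFP-positive minus Six2GFP-negative (axis in log2 units), for each gene of the 9 duct and urothelium genes and of 7 companion lists (rows, 1 point per gene by its brightest probe), with a red line at each median. Medians lie at -3.51 for the 9 genes, -3.24 for the ureteric bud, -1.42 for urothelium, and all 9 genes of the top row lie left of 0.

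The 2 Six2GFP-positive arrays read these genes less evenly than the 2 Six2GFP-negative arrays. The size of the gap between arrays had a median of 0.69 over the 11 probes in Six2GFP-positive cells, beside 0.12 over all probes, and of 0.20 in Six2GFP-negative cells, beside 0.14 over all probes. A gap over 1 occurred for 4 of the 11 probes in Six2GFP-positive cells, Calb1 probe 1 (1.65), Upk1b (-1.49), Upk3a (-2.06) and Elf5 (1.26), counted as array 1 minus array 2. Of all probes 2.35% had such a gap, and of 6780 probes with a Six2GFP-positive mean under -5 it was 7.55%. Of the 11 member probes 5 had a Six2GFP-positive mean under -5, and all 4 gaps over 1 were among these 5 dim probes. In Six2GFP-negative cells the gap reached at most 0.48 and exceeded 1 for 0 of the 11. Array 1 read higher for 9 of the 11 probes, with Upk1b and Upk3a the 2 exceptions. The standard errors of the 11 differences, 0.14 to 0.74, lay above the median of 0.12 over all probes.

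Single genes of other lists, picked out after their values were seen, also differed between the 2 Six2GFP-positive arrays. Fxyd4, a regulator of the sodium pump, read -1.71 and -3.30 on the Six2GFP-positive arrays and 0.82 and 0.87 on the Six2GFP-negative arrays. Kcnj1, the apical potassium channel, read -2.46 and -5.29 on the Six2GFP-positive arrays and -2.12 and -2.40 on the Six2GFP-negative arrays, and did not pass the test (-1.61 ± 1.01, limma adjusted p = 0.263). Slc12a1, the sodium-potassium-chloride transporter of the thick ascending limb, read -3.08 and -9.14 on the Six2GFP-positive arrays and -3.94 and -4.25 on the Six2GFP-negative arrays. Slc12a1 was thus above both Six2GFP-negative arrays on Six2GFP-positive array 1 and below them on array 2, where it was not well above background. Grhl3, Foxa1 (-6.85 and -5.81), Krt20 and Msln read higher on Six2GFP-positive array 2, as Upk1b and Upk3a did. The lists these genes come from did not all lean that way. On Six2GFP-positive array 1, 11 of 19 urothelial genes were higher, with a median gap of 0.03, and 4 of 8 mesothelial genes. So were 10 of 13 principal cell genes, 7 of 10 distal tubule genes, all 12 granulocyte and macrophage genes and 0 of 9 erythroid genes. The cause of these gaps was not tested.

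**Figure D4:**
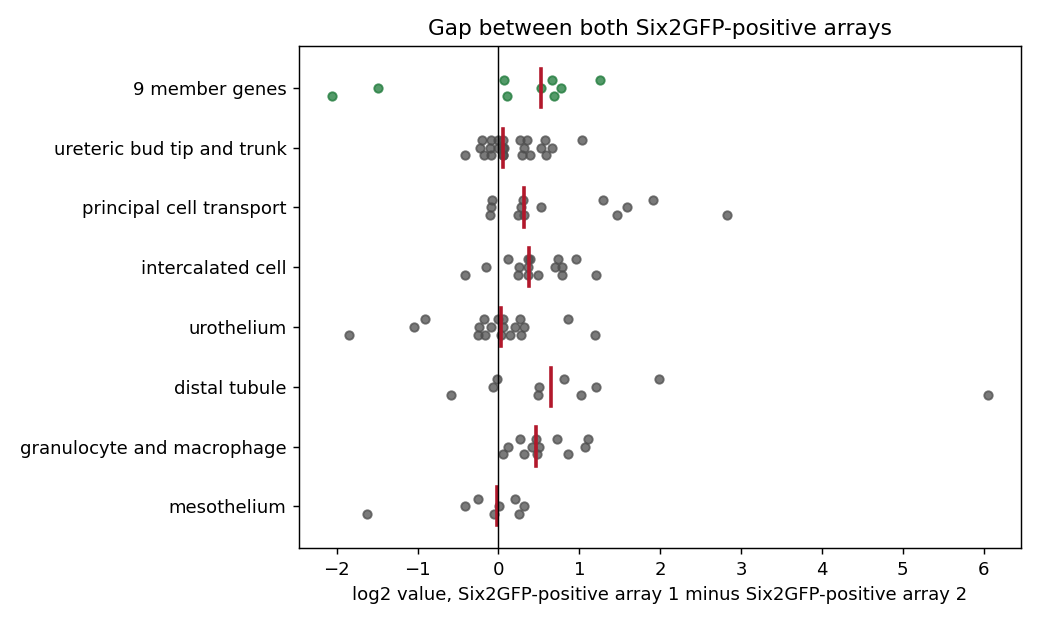
Gap between the 2 Six2GFP-positive arrays (array 1 minus array 2, x axis in log2 units) for the 9 duct and urothelium genes and 7 companion lists (rows, 1 point per gene by its brightest probe), with a red line at each median. Upk3a (-2.06) and Upk1b (-1.49) are the 2 points of the top row below 0, and the point far right in the distal tubule row is Slc12a1.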

How the data were processed

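Per the file headers, the authors quantified 4 one-colour arrays of design 026655 with Agilent Feature Extraction 10.7.3.1, protocol GE1_107_Sep09. Probe coordinates are on mm9. Intensity in the deposited scanner files is linear, per spot, background-subtracted and detrended within the array but not normalized between arrays. The deposited series value table holds the same intensity: 99.76% to 99.84% of probes lay within 0.01 log2 of the scanner value, with array medians of 114 and 110 (Six2GFP-positive) and 158 and 144 (Six2GFP-negative).

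From these deposited values, log2 of the processed signal was taken minus each array's 75th percentile (1511 and 1483 in Six2GFP-positive cells, 1710 and 1693 in Six2GFP-negative cells). Spots of a probe were averaged without the 108 to 174 outliers of an array. The filter kept probes that 1 group or more had well above background on its 2 arrays. Groups, taken from the titles, were compared in R 4.3.3 by lmFit and eBayes of limma 3.58.1, two-sided and without a block. The threshold was a Benjamini-Hochberg adjusted p of 0.05. The fit was also run on simulated data with normal noise and no background floor, so that run does not cover probes near background. The titles number the arrays of each population alike, and the design text speaks of 2 sets. Whether same-numbered arrays come from 1 sort is not known here. Same-numbered arrays deviated together weakly (r = 0.221 across probes), which cannot decide this. With 2 arrays per population, both pairs give the same r by construction. The main fit took no pairing, and the replicate block is among the alternatives. For a bound, each dim array counts at its lowest signal well above background, or at the probe's own value where that is higher. That lowest signal is taken over all probes of the array, so a bound is not a strict minimum for a single probe.

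Names came from a RefSeq gene table by accession for 26055 probes and by symbol for 3195, and 10179 kept the file's name. Lists read each gene by its brightest kept probe. The members and lists were chosen with earlier results of these data known. Named were all members, Six2, the members of the aquaporin, ETS/ELF and CP2/grainyhead families, the 3 largest called differences of each other list, and the 2 genes nearest each member. The values of 1 gene that this rule names are not reported here. Alternatives were quantile and array-median scaling, normexp (offset 50), the series table, other filters, robust variance with an intensity trend, the replicate block, the mean of a gene's probes, and leaving out each array.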

Additional observations from a re-analysis of the deposited data

How the results depend on the processing

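All 130 alternative values of the 11 member probes kept their direction, and 123 stayed past the threshold. The exceptions were Elf5, Upk1b and Upk3a without either Six2GFP-negative array, and Upk3a with every probe tested, dim ones included (-3.65, adjusted p = 0.0522). Leaving out 1 array at a time gave differences of -4.14 to -2.89 for Elf5, -3.57 to -2.08 for Upk1b and -4.68 to -2.62 for Upk3a, and 8 to 11 member probes called. With the filter on all 4 arrays, Upk1b and Calb1 probe 1 could not be tested. Over all probes, 6810 were higher, against 14693 with the array median (whose median difference was 0.44 in place of 0.17), 3792 without a filter, and 1838 to 2740 when 1 array was left out. With the replicate block all 11 member probes were called lower, 6236 probes were higher and 5435 lower, while Elf2 (adjusted p = 0.0706) and Gfra1 (0.0512) lost their calls. Of 408 alternative counts of single lists, 47 moved over 1.5 times, 38 of them from a main count of 4 or fewer, and the cause was not tested. Signal close to background on the Six2GFP-positive arrays limits the size of the Upk1b and Calb1 probe 1 differences. The sizes for Elf3, Upk3a and Elf5 also depended on how background is removed. They were -3.78, -3.65 and -3.51 in the main fit, and -1.88, -2.24 and -2.34 with normexp.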

Other observations

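The genes on either side of the 9 on their chromosomes were read as well. Of 36 neighbours, 2 on each side in the RefSeq gene table, 34 had a probe above the filter, 9 were lower and 4 higher in Six2GFP-positive cells, with a median of -0.02, beside 18.2% lower, 22.4% higher and a median of 0.17 over all genes. Elf5 stands next to Ehf, the related factor that differed by -5.36. Tfcp2l1 is followed by Gli2, a hedgehog transcription factor, at -1.78 ± 0.08, and Inhbb, an inhibin subunit, at -2.92 ± 0.18 (limma adjusted p = 8.44e-04 and 0.00146). Upk1b has Arhgap31, a GTPase regulator, at -2.33 ± 0.09 (adjusted p = 5.81e-04), and Igsf11, an adhesion molecule, 6.46-fold lower by its bound. Aqp2 stands before Aqp5 and Aqp6, and Aqp3 beside Aqp7. No neighbour of Calb1, Aqp3, Upk3a or Lcn2 was lower past the threshold. These neighbours were named after their values were seen.

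The genes whose 4 array values, each centred on its own mean, lay nearest to a member among 23550 probes were as follows, as a description of 4 arrays. Adgrg3, an adhesion receptor, lay 0.028 log2 units from Aqp3, the smallest distance, with Fgfbp1 at 0.115. Lad1 and Car4 lay nearest to Elf3 (0.068 and 0.086), Serpinf2 and Ly6f to Elf5 (0.061 and 0.135), and Prdm6 and Gstt1 to Tfcp2l1 (0.059 and 0.067). Mapk4 and Zbtb32 lay nearest to Lcn2 (0.054 and 0.093), Ipcef1 and Gpr132 to Aqp2 (0.084 and 0.098), and ccdc198 and Prdm16 to Calb1 (0.084 and 0.092). Upk3a, nearest to Nppc (0.287) and Msln (0.390), and Upk1b, nearest to Col9a3 (0.315) and Itga4 (0.318), had no gene as close. Upk1b was well above background on neither Six2GFP-positive array, so its distances rest in part on values at background.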
